A study of Bos taurus with 2 samples.

Results

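Cyclins, cyclin-dependent kinases (CDKs) and their closest regulators were taken as every non-control probe of a bovine oligonucleotide array whose gene name in the scanner tables begins with CCN plus a letter from A to T, with CCNY, with CDK plus a digit, or with CDKN, CDKL or CDC25. The names CDC2, CDC20, CDC42, PLK1, PLK4, AURKA, AURKB and AURKC were added where present. This rule gave 74 genes with 159 probes, out of 31910 gene names and 51280 probes on the array. It uses names alone and no measured value, so it also takes in proteins named for binding a cyclin or CDK, such as CCNDBP1 and CDK5RAP3. CDC42 carries a cell division cycle name without being a cyclin or a CDK. CDK11B stayed outside because the tables file it under its older name CDC2L1.

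The arrays measured total RNA of spermatozoa from HF crossbred breeding bulls. One array held RNA of bulls labelled high for fertility and the other RNA of bulls labelled low. The labels give neither the number of animals behind an array nor the criterion for fertility, and no age. With 1 array per group there was no replicate, so no p-value is given and each difference describes these 2 arrays. As an error, the log2 error that the scanner software assigned to each signal was propagated to the difference, and the SD between probes of a gene was given where it had several.

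Cyclins bind CDKs and switch on their kinase activity at set points of the cell cycle. CDK inhibitors block these complexes, CDC25 phosphatases remove inhibitory phosphates from them, and aurora and polo kinases run mitosis and meiosis beside them. A separate branch, with CDK7, CDK8, CDK9 and CDK12 and their cyclins, phosphorylates RNA polymerase II. Mature sperm have left the cell cycle and transcribe almost nothing, so RNA of these genes in sperm is mostly carried over from spermatogenesis.

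The probes shown here belong to the 3 genes that differed at least 2-fold between the arrays. They are printed because the probes of a gene lie at different places along its transcript and did not all behave alike. Each line gives the gene, the base of the transcript at which the 60-base probe starts, and the last 30 bases of that probe as the scanner tables give them, 5′ to 3′. Capitals mark AATAAA, the usual polyadenylation signal.
CCNG1 at 995: ggcaactgaggcatagttactacaggataa
CCNG1 at 1735: agtttttactgtactagtaactcaaaacaa
CCNG1 at 2127: catgttttatggataactttacagttttcc
CCNG1 at 2224: aaccaactcccattatgttttggtactaag
CCNT2 at 2136: ctgttaagtgcccaaggaatgaacatgtaa
CCNT2 at 3261: ttctttttcaggtaaatgcagtcttcctta
CDKN1A at 448: cccgaggggacccccggtgggcctggcgcc
CDKN1A at 2283: cagcaggtgctcAATAAAtattcctgatga

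The file headers give positions on build HGSC Btau_3.1. There the CCNG1 probes lie on the plus strand at chr7:75278292-75278351, chr7:75279994-75280053, chr7:75280386-75280445 and chr7:75280483-75280541, in the order printed. The CCNT2 probes lie on the minus strand at chr2:65314977-65315036 and chr2:65313852-65313911. Those of CDKN1A lie on the plus strand at chr23:10911452-10911511 and chr23:10914759-10914818. Each of these 8 probes maps to an unbroken stretch of 59 or 60 bases and so crosses no intron. Which exon holds it, and whether that is coding sequence or UTR, was not analysed here. None of the 8 shares 16 bases with a probe of another gene. AATAAA stood on the printed strand in 12 of the 159 member probes (7.55%), against 8.35% of all probes. Its reverse complement TTTATT stood in 3 of the 159, against 3.30% of all probes.

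The header barcodes place both arrays on a single slide. On both arrays 27.6% of all probes were well above background. The processed signal, in linear units after background subtraction, had a 75th percentile over these probes of 148.6 with high-fertile and 186.3 with low-fertile RNA. Where a pair of signals is given for a probe, that of the high-fertile array stands first. Each array was divided by its own value, so equal RNA corresponds to a slightly lower raw signal on the high-fertile array. The lowest signal counted as well above background was 22.6 with high-fertile and 30.3 with low-fertile RNA. Between spots of one probe the log2 difference had an SD of 0.28 (3049 probes), and between non-overlapping probes of one gene an SD of 0.44 (1403 genes).

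Sperm markers were checked first. Of 16 genes of sperm and spermatids 11 were measured on both arrays, among them TNP1, ODF1, ACR and CATSPER1, while PRM2 and AKAP4 were not. Markers of other cells were also present: 8 of 10 leukocyte genes were measured, 7 of the 7 testis somatic genes on the array, 3 of 7 epithelial genes and 1 of 4 erythroid genes. None of the 7 spermatogonial and spermatocyte genes on the array was. Among the sperm genes TNP2 was 2-fold or more higher and PRM1 lower with high-fertile RNA (log2 difference 1.22 and -1.10). None of the markers of other cells differed 2-fold, and their medians lay between -0.11 (leukocyte) and 0.34 (epithelial) on the log2 scale. The part of such cells in the values below was not tested. In RNA from whole samples, fewer cells of a type and less RNA per cell cannot be told apart.

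Of the 74 genes, 30 (40.5%) had at least 1 probe well above background on both arrays, against 36.4% of all gene names. A further 2 were measured on one array only, 1 (CDKL1) in some of its spots, and 41 on neither array. At the probe level 44 of 159 (27.7%) were measured on both arrays, 8 on one array and 106 on neither. Neither CCNB1IP1 nor CDK9, the 2 genes on one array only, passed 2-fold over its bound. Over all genes on one array only, 7.31% of those on the high-fertile and 17.7% of those on the low-fertile array did. The 106 dim probes reached at most 25.8 with high-fertile and 35.9 with low-fertile RNA. Measured member probes had a median GC content of 45% and the others 41.7%, beside 45% and 43.3% over all probes.

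Detection is given here by role, beside the 36.4% of all gene names that were measured on both arrays. No role holds more than 10 genes, so these counts set nothing apart from that share. Among 10 cyclins of the cell cycle 5 were measured: CCNB2, CCND1, CCND2, CCND3 and CCNF. The A and E cyclins (CCNA1, CCNA2, CCNE1, CCNE2) and CCNB1, which drive S phase and entry into division, were too dim on both arrays. CDK1, the catalytic partner of the B cyclins, was also dim, with 5.52 with high-fertile and 7.76 with low-fertile RNA from its 1 probe. CDK2, CDK4 and CDK6 were measured and CDK3 was not. Of 7 cyclins and 6 CDKs of the transcription branch only CCNT2 was measured on both arrays. Of 8 other CDKs 4 were measured, namely CDK16, CDK17, CDK18 and CDK20. So were 4 of 7 CDK inhibitors, 4 of 6 CDK-binding proteins, 1 of 3 CDC25 phosphatases and 4 of the 7 mitotic kinases and activators. A probe that is not well above background gives an upper bound on its signal and does not show that the RNA is absent.

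**Figure D1:**
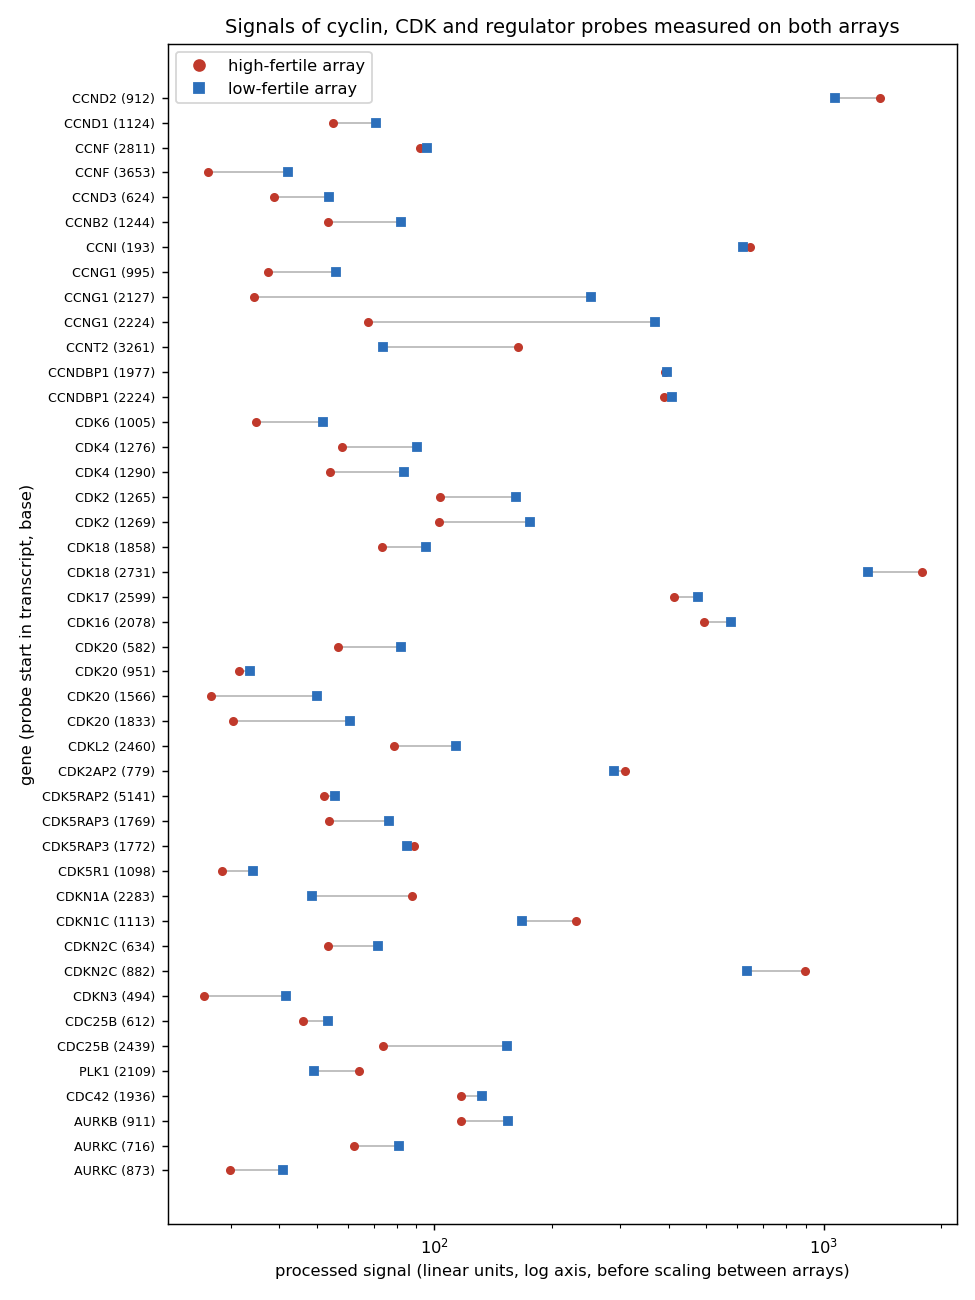
Processed signal of each of the 44 member probes measured on both arrays (x axis, linear units on a log axis, before scaling between arrays), by gene and probe start in the transcript (y axis, in bases). Circles stand for the high-fertile and squares for the low-fertile array, 1 array each. The widest gaps are those of the CCNG1 probes at 2127 and 2224, with the low-fertile array higher.

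Of the 30 measured genes, CCNT2 and CDKN1A stood 2-fold or more above, and CCNG1 as far below, with high-fertile RNA. Of all 11619 measured genes 4.32% lay at least 2-fold apart, 1.88% higher and 2.44% lower. The 3 of 30 members make 10%, and so small a count sets nothing apart from that share. Most members differed little: 24 of 30 (80.0%) lay within 0.5 on the log2 scale, beside 78.3% of all measured genes. Their median was 0.08 and that of all genes -0.00, with 16 members above 0 and 14 below. In 20 of the 30 the difference was smaller than 2 times the scanner error, with the probes of a gene taken as independent.

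**Figure D2:**
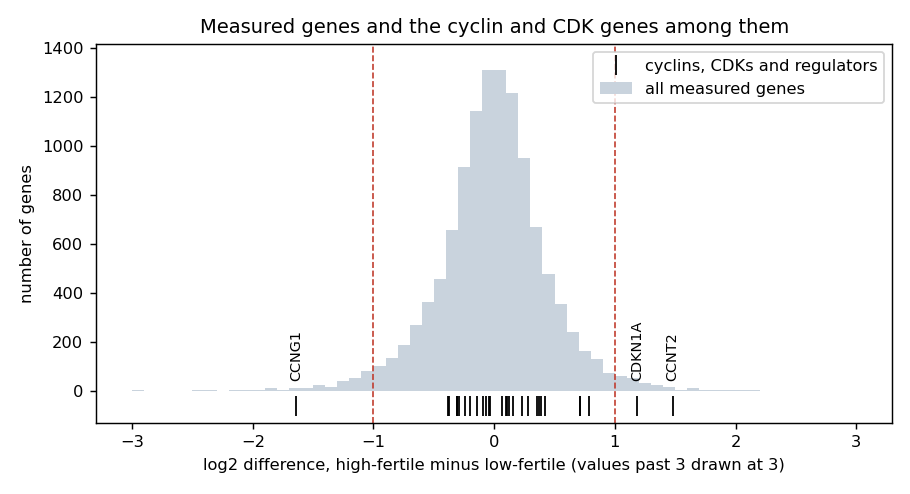
Number of measured genes (y axis) by log2 difference, high-fertile minus low-fertile (x axis), with the 30 measured cyclins, CDKs and regulators as ticks below the bars and dashed lines at 2-fold. Of the members, CCNG1 lies past the left line, and CDKN1A and CCNT2 past the right one.

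CCNG1, cyclin G1, an atypical cyclin whose gene is a target of p53, had the most negative difference of the measured members. Its probe at base 2224 gave 67.6 with high-fertile and 369.2 with low-fertile RNA. The probe at 2127 gave 34.4 and 252.2. At 995 the signals were 37.5 and 55.9. All 3 were lower with high-fertile RNA, those at 2224 and 2127 by far more than that at 995. After scaling the log2 differences were -2.12 (scanner error 0.23), -2.55 (0.29) and -0.25 (0.38). The fourth probe, at 1735, gave 108.0 on the low-fertile array and 24.2, not well above background, on the high-fertile array. Taken at its own dim value that is 3.57-fold lower there, a log2 difference of -1.83 (scanner error 0.40). So the 3 probes from base 1735 onward all stood at least 3.57-fold apart, while the probe at 995 lay within its error of no difference.

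As a gene, CCNG1 stood at -1.64 (SD 1.22 over 3 probes), 3.12-fold lower with high-fertile RNA and the 50th lowest of 11619 genes. A range of 2.30 between its probes was wide: among 297 genes with 3 measured probes the median range was 0.59, and 2 genes, CCNG1 included, had one this wide. None of the 4 spots lay in a patch of the slide where neighbouring spots differ together, and at most 2 of the 8 spots around each differed 2-fold the same way. With normexp background correction CCNG1 stood at -0.97, just inside 2-fold, with its probes at -1.54, -1.42, -0.59 (at 1735) and 0.06 (at 995). With the stricter filter on dim probes it was not measured.

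**Figure D3:**
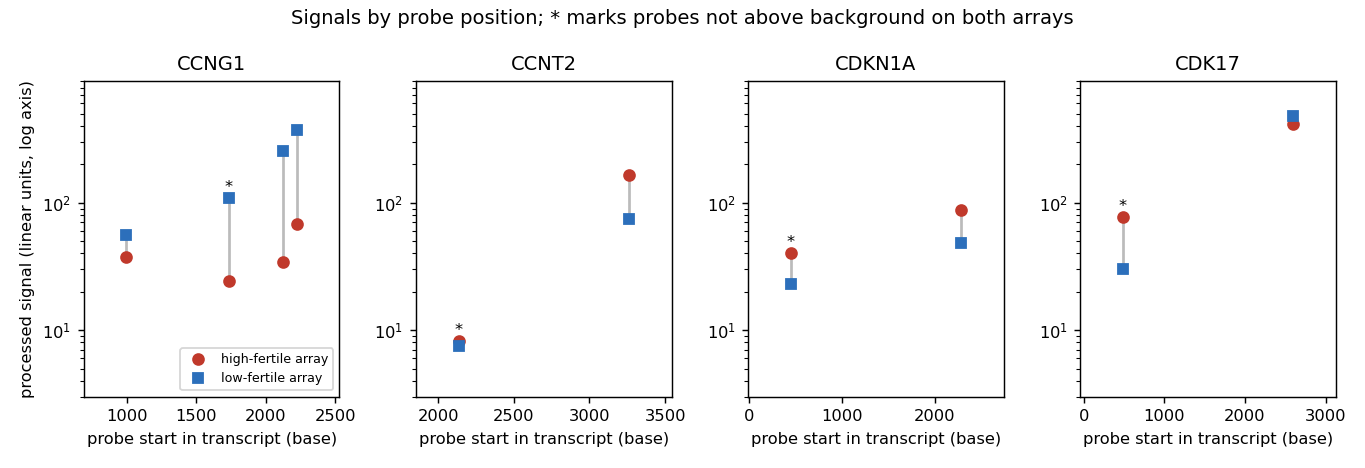
Processed signal (y axis, linear units on a log axis) against the start of each probe in its transcript (x axis, in bases) for CCNG1, CCNT2, CDKN1A and CDK17, with circles for the high-fertile and squares for the low-fertile array. A star marks a probe not well above background on both arrays. The CCNG1 gap is narrow at 995 and wide from 1735 onward, and the CDK17 gap is wide at 487 and narrow at 2599.

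The other measured cyclins differed less. CCND2, cyclin D2, which with CDK4 or CDK6 starts the passage through G1, gave 1397 with high-fertile and 1069 with low-fertile RNA, a log2 difference of 0.71 (scanner error 0.20). Its sisters CCND1 (54.97 and 70.7) and CCND3 (38.8 and 53.7) differed by -0.04 and -0.14, less than their scanner errors of 0.29 and 0.32. CCND2 thus stood higher and the other D cyclins level, each on 1 measured probe. The difference of CCND2 shrank to 0.46 with loess on mean signal and to 0.12 with spike-in scaling, which moves the median of all genes to -0.60. CCNB2, a mitotic cyclin, differed by -0.29 (scanner error 0.26), from 53.4 and 81.9. A second CCNB2 probe was measured on the low-fertile array only, at 43.5, for a bound of 1.53-fold. On the log2 scale that bound is 0.62, less than the scanner error of 0.70. CCNF, the F-box cyclin of an SCF ubiquitin ligase, differed by -0.04 with probes of opposite sign (0.26 and -0.35).

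CCNI, an atypical cyclin, gave 646.6 and 619.1 at its probe near the transcript start, a difference of 0.39 (scanner error 0.21). Its probe at base 2765 was measured on the high-fertile array only, at 27.5, and those at 1231 and 2140 on neither. CCNDBP1, a cyclin D-binding protein, had closely matching probes at 391.1 and 396.7 and at 389.5 and 407.9, with differences of 0.31 and 0.26. CCNB1IP1, a ubiquitin ligase of meiotic crossover sites, was measured on the high-fertile array only, at 33.9, against 34.6 on the low-fertile array, where the software did not count it as well above background. Its bound of 1.23-fold is the difference of the 2 signals themselves, 0.30 on the log2 scale, and lay within the scanner error of 0.43. With spike-in scaling it was 0.81-fold.

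CCNT2, cyclin T2, a partner of CDK9 in the kinase that releases paused RNA polymerase II, had the most positive difference of the members. Its probe at 3261 gave 164.1 with high-fertile and 73.9 with low-fertile RNA. After scaling that is 2.79-fold higher, a log2 difference of 1.48 (scanner error 0.27), the 40th highest of 11619 genes. It rests on 1 spot, with 3 of the 8 spots around it at least 2-fold the same way, where the mean over measured spots was 0.50. Its other probe, at 2136, was not above background on either array (8.22 and 7.46). CCNT2 stood below 2-fold with normexp (0.90), with spike-in scaling (0.88) and with no filter on dim probes (0.97), and the stricter filter left it out.

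The kinase that CCNT2 activates, CDK9, was measured on the low-fertile array only, in 1 of 3 probes. That probe gave 45.6 there and 20.1 on the high-fertile array, for a bound of at least 1.61-fold. CDK7, CDK8, CDK12, CDK13 and CDK19 and the cyclins CCNC, CCNH, CCNK, CCNL1, CCNL2 and CCNT1 were measured on neither array. Of the cyclins and CDKs counted in this branch, CCNT2 alone was measured on both arrays.

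Of 5 cell cycle kinases CDK2, CDK4 and CDK6 were measured, and none differed 2-fold. CDK2, the partner of the E and A cyclins, gave 103.5 and 161.6 with one probe and 102.8 and 176.5 with the other. Its difference was -0.38 (SD 0.10 over 2 probes, scanner error 0.22 for each probe). These 2 probes overlap by 56 bases and differ at 1 of them, so they are no independent pair. CDK4 gave 57.8 and 90.2, and 54.1 and 83.6 with a probe that overlaps the first by 46 bases. Its difference was -0.31 (SD 0.01, scanner errors of the probes 0.25 and 0.28). CDK6, its relative, gave 34.8 and 51.7, a difference of -0.25 (scanner error 0.35). All 3 were below 0 under each alternative that measured them. In the scaling used here alone, 5816 of all 11619 genes were below 0. How many of all genes stayed below 0 under each alternative was not analysed. None of the 3 exceeded the SD of 0.44 between probes of one gene.

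**Figure D4:**
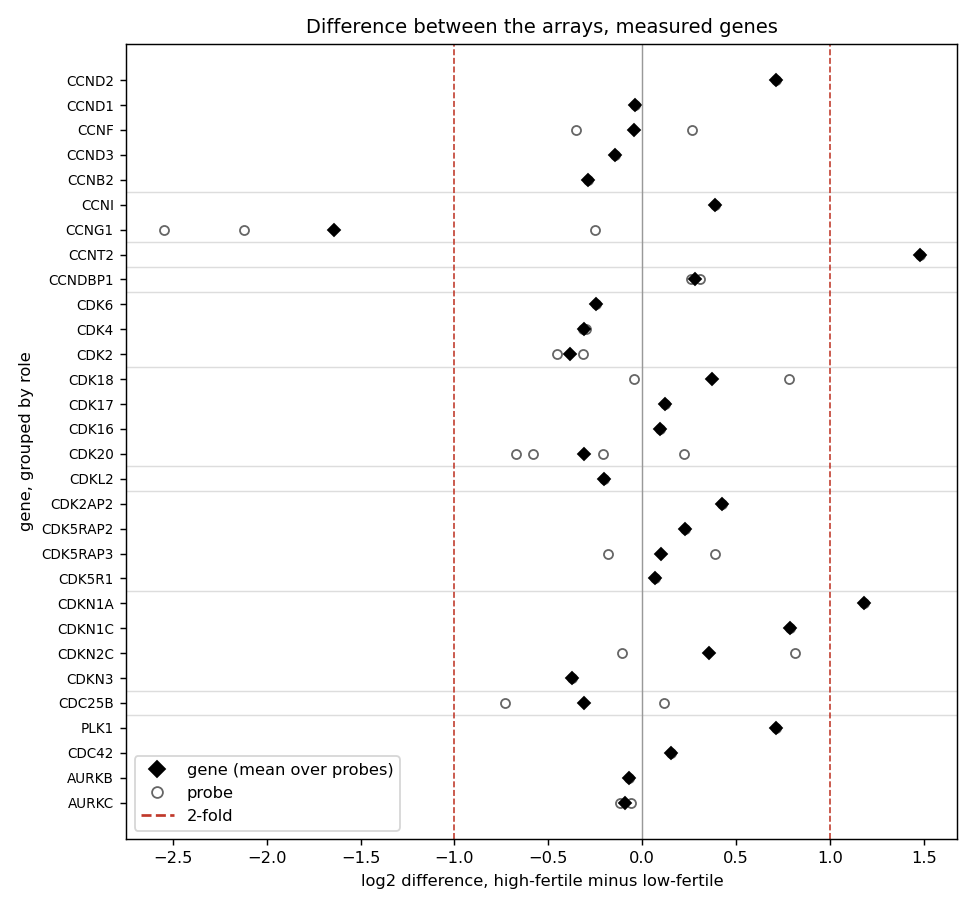
Log2 difference, high-fertile minus low-fertile (x axis), of the 30 measured genes (y axis, grouped by role), with diamonds for genes, open circles for their probes and dashed lines at 2-fold. Most diamonds lie between -0.5 and 0.5. The CCNG1 probes span -2.55 to -0.25.

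Of the less typical CDKs, CDK16, which with cyclin Y is needed for normal sperm formation, gave 493.4 with high-fertile and 579.7 with low-fertile RNA, a difference of 0.09 (scanner error 0.21). Its cyclin, CCNY, was measured on neither array. CDK17, of the same PCTAIRE family, gave 412.1 and 474.3 at its probe at 2599, a difference of 0.12. Its probe at 487, which spans an exon junction, gave 76.9 on the high-fertile array and 30.2, not well above background, on the low-fertile array, at least 3.18-fold higher. The CDK17 probes thus did not agree. Of the 8 member probes measured on one array, this one and that of CCNG1 were the 2 past 2-fold. The share of such probes over the whole array was not analysed here, so this count sets nothing apart. CDK18 gave 1784 and 1300 at its probe at 2731 (0.78, scanner error 0.20) and 73.5 and 95.0 at 1858 (-0.04, 0.26), for a gene value of 0.37. CDK20, linked to cilium formation, had 4 measured probes between -0.67 and 0.23 and a gene value of -0.31 (SD 0.41). The CDK-like kinase CDKL2 differed by -0.20 (78.7 and 113.7). CDKL1 gave 25.3 and 43.8 in one spot and 29.6 and 29.5 in the other, with only 1 of the 2 well above background on the low-fertile array.

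CDK-binding proteins differed by 0.42 or less. CDK2AP2, which binds CDK2, gave 309.7 and 289.6 (0.42, scanner error 0.21). CDK5RAP2, a centrosome protein, gave 52.0 and 55.7 (0.23, 0.29). CDK5R1, the activator of CDK5, gave 28.5 and 34.1 (0.07, 0.42), while CDK5 itself was measured on neither array. CDK5RAP3, a cofactor of UFM1 conjugation, had 2 probes that overlap by 57 bases and yet gave -0.18 (53.7 and 76.5) and 0.39 (88.7 and 85.1). Probes of nearly the same sequence thus differed in sign.

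CDK inhibitors held the other member past 2-fold. CDKN1A, the p53 target p21 that blocks CDK2 complexes, gave 87.7 with high-fertile and 48.5 with low-fertile RNA at its probe at 2283, which holds the AATAAA printed above. After scaling this is 2.27-fold higher, a log2 difference of 1.18 (scanner error 0.31), the 118th highest of 11619 genes. Its second probe, at 448, pointed the same way: 40.2 on the high-fertile array and 23.1, not well above background, on the low-fertile array, at least 1.66-fold. No spot around the first probe differed 2-fold the same way. With normexp CDKN1A stood at 0.55 and with spike-in scaling at 0.59, and the stricter filter left it out.

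CDKN1C, the inhibitor p57, gave 231.4 with high-fertile and 168.3 with low-fertile RNA (0.79, scanner error 0.22). CDKN2C, the inhibitor p18 of CDK4 and CDK6, gave 894.7 and 637.0 at 882 (0.82, scanner error 0.20) and 53.2 and 71.9 at 634 (-0.11, 0.27), for a gene value of 0.35. CDKN3, a phosphatase that removes the activating phosphate of CDK2, gave 25.6 and 41.6 (-0.38, 0.39). CDKN1C thus stood higher on its 1 probe, while CDKN2C split between its probes. With spike-in scaling, where the median of all genes was -0.60, CDKN1C stood at 0.19 and CDKN2C at -0.24. CDKN1B, CDKN2B and CDKN2D, and the CDKN2A-interacting CDKN2AIP and CDKN2AIPNL, were measured on neither array.

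Among the CDC25 phosphatases only CDC25B was measured. Its probe at 2439 gave 73.8 with high-fertile and 153.9 with low-fertile RNA (-0.73, scanner error 0.24), and the one at 612, across an exon junction, gave 46.0 and 53.3 (0.11, 0.32). The other 4 of its 6 probes were dim. CDC25B as a gene stood at -0.31 (SD 0.60 over 2 probes). CDC25A and CDC25C were measured on neither array.

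Of the mitotic kinases PLK1, the polo kinase of mitosis, gave 64.0 with high-fertile and 49.0 with low-fertile RNA, a difference of 0.71 (scanner error 0.29) from 1 probe. PLK1 stood at 0.37 with normexp and at 0.12 with spike-in scaling, and the stricter filter left it out. AURKB, the aurora kinase of the chromosomal passenger complex, had 2 spots at 113.7 and 141.4 and at 120.9 and 168.2, for -0.07 (SD 0.11 over spots). AURKC, the aurora kinase of male meiosis, gave 62.1 and 81.3 at 716 and 29.9 and 40.8 at 873, for -0.09 (SD 0.04 over 2 probes). Both AURKC probes and that of AURKB span exon junctions, and both genes differed by less than their scanner errors (0.16 and 0.24). The remaining AURKC probe, at 586, was measured on the low-fertile array only, for a bound of 1.28-fold. On the log2 scale that bound is 0.36, less than the scanner error of 0.60. AURKA, PLK4 and CDC20, which activates the anaphase-promoting complex, were measured on neither array. CDC42 gave 117.3 and 132.3 (0.15, scanner error 0.23).

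Further genes of the cell cycle were taken from 8 lists of known pathway genes. Of 119 on the array 50 were measured, 0 stood 2-fold or more higher and 5 that far lower with high-fertile RNA, with a median of -0.14. The measured share was 42.0%, against 36.4% of all gene names, and over all measured genes 1.88% stood that far higher and 2.44% lower. So few genes set nothing apart from these shares. The 5 were BUB1 (50.9 and 203.7, -1.67), a spindle checkpoint kinase, RRM2 (34.5 and 100.3, -1.21), a subunit of ribonucleotide reductase, CHEK1 (49.0 and 133.2, -1.12), a checkpoint kinase, CDC27 (30.3 and 78.6, -1.05), a subunit of the anaphase-promoting complex, and GTF2H1 (39.9 and 103.3, -1.04), a subunit of the factor that holds CDK7. Each rested on 1 measured probe. None was as low as -1 with normexp, where they lay between -0.95 (BUB1) and -0.36 (GTF2H1). With no filter on dim probes BUB1 (-0.80), CDC27 (-0.76), CHEK1 (-0.66) and RRM2 (-0.89) also stood inside 2-fold. CDC27 stood at -0.98 with loess and at -0.96 with quantile normalization, and GTF2H1 at -0.97 with the latter.

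In the lists the anaphase-promoting complex and spindle checkpoint had 17 of 26 genes measured, with CDC23 at 0.89, ANAPC11 at 0.69 and a median of 0.08. Of the CDK regulators and SCF subunits 7 of 11 were measured, with FBXW7 at -0.80, SKP2 at -0.49 (SD 0.52 over 4 probes), PKMYT1 at 0.24, WEE1 at 0.01 and a median of -0.30. Of the Rb and E2F genes 2 of 12 were measured, E2F1 at -0.21 and E2F5 at -0.15. Replication licensing had 7 of 22, with MCM4 at 0.85, GINS4 at 0.22, MCM3 and GINS2 both at -0.53, and a median of 0.03. The damage checkpoint had 6 of 15, with GADD45A at 0.62, MDM2 at 0.23, HUS1 at -0.61 and a median of -0.49. Among mitotic kinases and passengers 4 of 12 were measured, with INCENP at 0.45, PLK2 at 0.25, TPX2 at -0.31, BIRC5 at -0.22 and a median of 0.02. Transcription CDK partners had 6 of 16, with MEPCE at 0.24, MED13L at 0.20, LARP7 at -0.60 and a median of -0.34. RRM2 was the 1 measured of 5 proliferation markers. CDK11B, outside the rule by its filed name, gave 103.9 with high-fertile and 287.9 with low-fertile RNA in 1 of its 2 probes, 2.21-fold lower with high-fertile RNA.

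**Figure D5:**
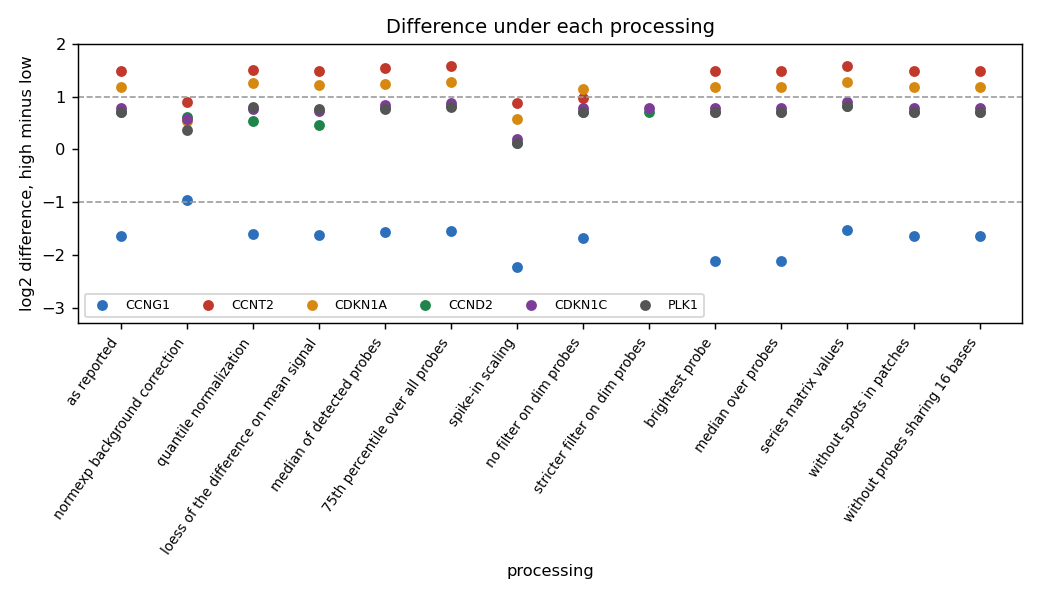
Log2 difference, high-fertile minus low-fertile (y axis), of CCNG1, CCNT2, CDKN1A, CCND2, CDKN1C and PLK1 as reported and under each alternative processing that measured them (x axis), with dashed lines at 2-fold. CCNG1 stays below 0 and the other 5 above 0 throughout, and normexp brings the 3 genes past 2-fold inside the lines.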

How the data were processed

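Spermatozoal RNA was labelled with Cy3 after oligo-dT priming and hybridised to 2 arrays, per the labels' protocols. The deposited scanner tables hold spot intensity from Agilent Feature Extraction 11.5.1.1 in 1 colour, per the file headers, with background subtracted and spatial trend removed within each array. The deposited series matrix holds log2 values equal to the log2 processed signal plus a constant per array (-5.12 and -5.55, within 0.01 for 98.6% of probes on each). Its column medians were -1.43 and -1.37.

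Controls and spots marked as outliers were dropped, which lost 2 probes, and the log2 values of a probe's spots were averaged. Each array's 75th percentile over probes well above background on both arrays was subtracted. A gene was the mean over such probes, counted at 2-fold. For a probe on one array only, the bound used, on the other array, its own value or the lowest signal well above background, whichever was higher. No spot was saturated, and the array number limits the precision. Probes were named through the reference table of ARS-UCD2.0 by accession (28112 probes), symbol (6484) or older symbol (153), and 16533 kept the file's name. It gives the names CCNA1 and CCNG2 to 2 further probes, both dim, which are outside the rule. A patch spot is one at least 2-fold apart with at least 4 of the 8 spots around it so, the same way.

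The genes named were members 2-fold apart or on one array, up to 4 measured members per role and direction, a list of central cell cycle genes, and up to 2 genes per pathway list and direction. The members, lists and alternatives were chosen with earlier results of these data known. The calculation was tested on simulated data. Tools were Python 3.11.15, R 4.3.3 and, for normexp with an offset of 50, limma 3.58.1.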

Additional observations from a re-analysis of the deposited data

How the results depend on the processing

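Each result was computed under 14 alternatives where they gave a value. The counts of 2 members higher and 1 lower became 0 and 0 with normexp, with the stricter filter on dim probes (12 members measured) and at 4-fold, 0 and 1 with spike-in scaling, and 1 and 3 with no filter, where CDC25C and CDK14, dim on both arrays, joined CCNG1 as lower. The other 9 gave 2 and 1. Of all genes 4.32% were called here, 1.03% with normexp, 4.02% with the stricter filter, 0.28% at 4-fold, 15.6% with spike-in scaling and 7.95% with no filter. The member median of 0.08 became -0.52 with spike-in scaling, where the median of all genes was -0.60. Spike-in scaling moves every gene by one constant. With the stricter filter, which keeps brighter probes, the member median was 0.34, with 10 of the 12 members above 0. The median of all genes was then 0.09. Members measured on one array only and past 2-fold numbered 0, and 1 with spike-in scaling (CDK9, at least 2.43-fold). Pathway genes at least 2-fold lower, 5 here, numbered 0 with normexp, with the stricter filter and at 4-fold, 3 with quantile normalization, with median scaling, with the series matrix values and with scaling to the 75th percentile of all probes, and 19 with spike-in scaling, where 1776 of all 11619 genes were lower. With no filter 5 were lower, among them GTF2H1 but not BUB1, CDC27, CHEK1 or RRM2, and 1 was higher. Of all genes called, 43.4% were higher here, 73.1% with the stricter filter and 1.82% with spike-in scaling. When the 75th percentile covered all probes, the share was 59.2%. The cause of these shifts was not tested. No call of a member changed sign. No paired analysis was possible because each group has 1 array, and the slide as a block was not run for the same reason. Signal over background limits the rest: 18 of the 30 measured members lay under 4 times the lowest signal well above background on at least one array.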
